A study of Mus musculus with 8 samples.

Results

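The genes described here encode folding proteins that reside in the endoplasmic reticulum (ER): Hspa5, Hsp90b1, Calr, Canx, Pdia3, Pdia4, Pdia6, Hyou1, Sdf2l1 and Manf. They were chosen by symbol, as 10 of the 21765 rows of a table of transcripts per 1000000 (TPM), and all 10 were among the 16097 genes tested. Proteins that are secreted or inserted into membranes fold in the ER, where Hspa5 (BiP) binds unfolded stretches, lectin chaperones hold glycoproteins, and protein disulfide isomerases form and shuffle disulfide bonds. When unfolded protein accumulates, the sensors of the unfolded protein response raise transcription of these genes. In olfactory sensory neurons this response has a further known role, since receptor protein arriving in the ER engages it while a neuron settles on 1 receptor gene.

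Polysomal RNA of mouse main olfactory epithelium was sequenced in 8 libraries. The tissue had been placed in 100 µg/mL cycloheximide, which holds ribosomes on mRNA, at dissection in all groups. Wild-type (WT) mice were Mex3a flox/flox or Mex3a flox/+ and carried no Cre, and conditional knockout (cKO) mice were Mex3a flox/flox with Cre, from a driver line that is not reported here. Mex3a encodes an RNA-binding protein. Of about 42 gradient fractions of 350 µL, fractions 27 to 34 were pooled as early (lighter) polysomes and 35 to 42 as late (heavier) polysomes, with 50 µL taken from each. WT early, WT late, cKO early and cKO late each held 2 libraries, 1 from each of 2 lysates. Age, sex and the number of animals per lysate are not given in the sources used here, so p-values measure the spread between these lysates, which may be technical.

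For 1 library the labels conflict: WT early replicate 2 by its title has the genotype field of a cKO sample. The title was followed, and results are also given without this library. Mex3a, scaled between libraries, was at 97.9 and 118 TPM in early (the latter being that library) and 88.1 and 89.2 in late WT libraries, and at 14.4 and 21.1 in early and 10.9 and 13.1 in late cKO libraries. Between 7776792 and 12771079 reads per library were inferred from the steps of the TPM values, and the members had between 146 and 17947 reads each in a library. Of the marker lists, that of mature olfactory neurons had 9 of 9 genes tested, and its defining marker Omp lay between 2439 and 5393 deposited TPM.

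Promoter sequences were examined first, because most of these genes share a regulatory element. The ER stress element consists of CCAAT, 9 bases of any kind, and CCACG, and was defined on promoters of this family. NF-Y is known to bind its first block and the stress sensor ATF6 its second. RefSeq promoter windows on GRCm38.p6, from 250 bases before to 50 bases after a start, were at hand for 8 of the 10 members, all but Hyou1 and Manf. Upper-case letters mark both blocks of the element, which is shown 5′ to 3′ in its own reading direction with 8 flanking bases, first where both blocks were complete:
Hspa5: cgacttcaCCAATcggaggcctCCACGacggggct
Hsp90b1, far element: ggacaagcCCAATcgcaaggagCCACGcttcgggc
Hsp90b1, near element: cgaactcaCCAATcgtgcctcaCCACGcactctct
Calr: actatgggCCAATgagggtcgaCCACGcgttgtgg
Canx: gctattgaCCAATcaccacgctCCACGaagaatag
Pdia6: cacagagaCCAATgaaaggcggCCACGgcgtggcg

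A further pair of windows held the element without the last base of its second block:
Pdia3: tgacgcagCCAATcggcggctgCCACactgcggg
Pdia4: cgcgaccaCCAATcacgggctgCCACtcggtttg

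The complete element was in 5 of the 8 member windows and in 39 of all 32851 windows (0.119%), searched on both strands. The shorter form, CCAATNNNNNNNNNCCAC, which includes every complete element and was added after the windows had been read, was in 7 of 8 and in 120 windows (0.365%). A second known element, ATTGGNCCACG, was in 0 of 8 and in 12 windows (0.0365%). Neither form of the element was among the letters of the Sdf2l1 window. The Hspa5 element lies at chr2:34772025-34772043 on the plus strand, at positions -65 to -47 from the RefSeq start. Those of Hsp90b1 lie at chr10:86705638-86705656 (minus strand) and chr10:86705533-86705551 (plus strand). The Calr element is at chr8:84847075-84847093 (plus), that of Canx at chr11:50325800-50325818 (minus) and that of Pdia6 at chr12:17266491-17266509 (plus). The shorter forms are at chr2:121413873-121413890 (plus) for Pdia3 and chr6:47813602-47813619 (plus) for Pdia4. For context, the 250 bases before the Hspa5 start, chr2:34771840-34772089 on the plus strand, read with the element in capitals:
Hspa5: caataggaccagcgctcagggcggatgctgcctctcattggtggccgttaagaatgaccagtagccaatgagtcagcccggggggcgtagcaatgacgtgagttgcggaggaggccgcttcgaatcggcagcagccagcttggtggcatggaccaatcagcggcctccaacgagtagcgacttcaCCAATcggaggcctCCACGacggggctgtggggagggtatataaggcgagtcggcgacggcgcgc
Such matches describe letters, not binding.

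Per transcript length, which TPM allows for, Calr was the highest of the 10 members in each of the 8 libraries, Hsp90b1 the second and Pdia3 the third. Mean scaled TPM over all libraries was 1401 for Calr, 985 for Hsp90b1, 671 for Pdia3, 476 for Hspa5 and 396 for Canx. Pdia6 (258), Pdia4 (256), Manf (150.1), Hyou1 (89.6) and Sdf2l1 (74.9) were lower. Against the 16097 genes tested these means lay between the 81.8th and the 99.7th percentile, so all 10 were abundant polysomal mRNAs. In WT early libraries Calr and Hsp90b1 overlapped, as did Hspa5 and Canx, Manf and Pdia4, and Pdia4 and Pdia6. In WT late libraries no neighbours in the order overlapped. The order differed between fractions at its lower end. By group means, Manf was the sixth in early and the ninth in late polysomes of both genotypes, while Hyou1 was the tenth in early and the eighth in late libraries. Together the members made up 0.280% to 0.388% of all TPM in early and 0.612% to 0.653% in late libraries, and these ranges did not overlap.

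**Figure D1:**
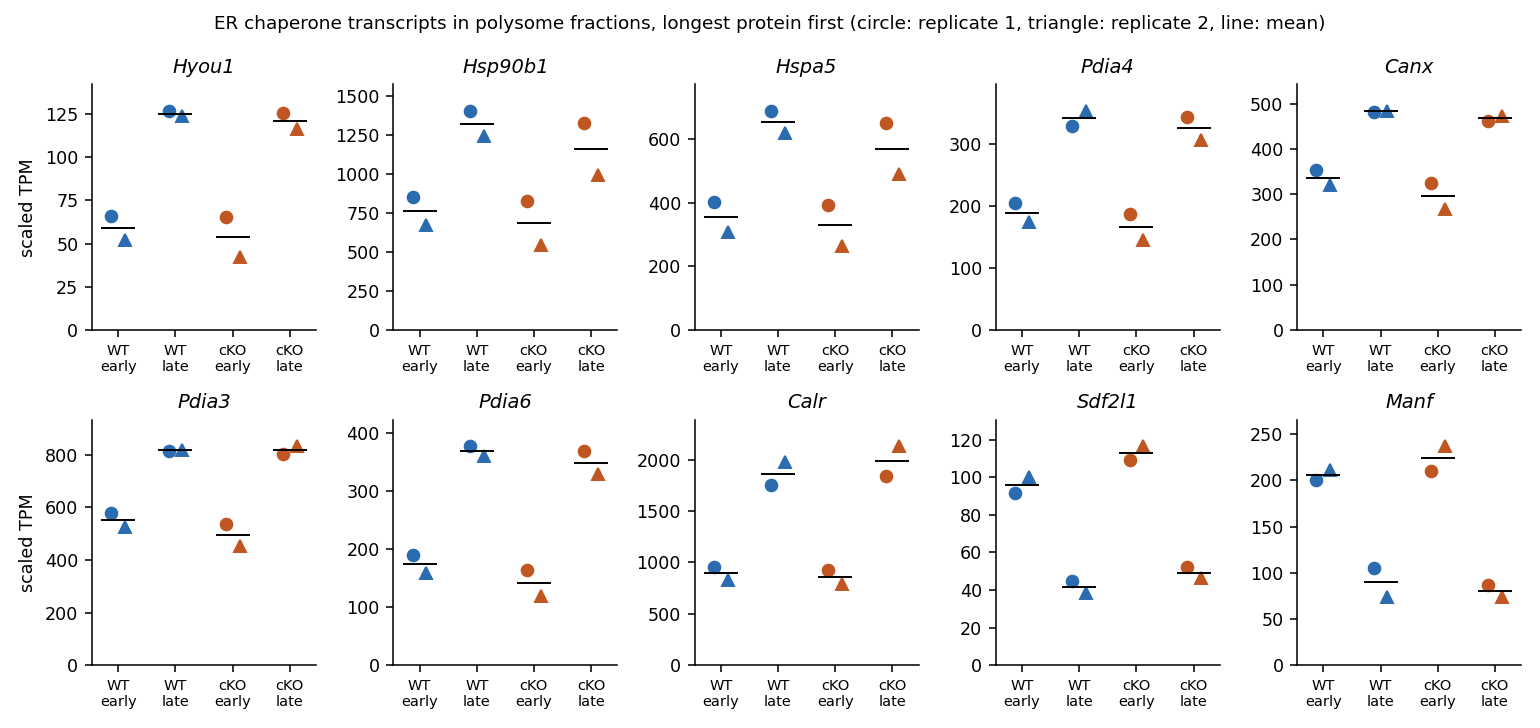
Scaled TPM (vertical axes, each from 0) of the 10 ER chaperone transcripts in each of the 8 libraries, by genotype and polysome fraction; circles are replicate 1, triangles replicate 2 and lines the mean of 2. Late libraries lie above early ones for 8 genes and below them for Sdf2l1 and Manf, and WT and cKO libraries overlap for most genes, as for Hspa5 with late means of 653 (WT) and 569 (cKO).

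Late were compared with early polysomes to ask where on the gradient these mRNAs sat. All 10 members passed an adjusted p of 0.05 by limma on the mean of both genotypes, 8 higher in late polysomes and 2, Sdf2l1 and Manf, lower. Over all genes tested 68.9% passed, 34.3% higher and 34.6% lower, so passing in itself was common. The median change of the members was 0.82 log2, beside -0.011 over all genes. In WT alone the same 8 members were higher and the same 2 lower, where 54.8% of genes passed, 27.1% higher and 27.7% lower. In cKO alone the split was again 8 to 2, where 58.1% passed, 28.9% higher and 29.2% lower. All 4 late libraries lay above all 4 early ones for the 8 members that rose, as for 31.5% of genes, and below them for the 2 that fell, as for 30.9%. TPM gives a transcript's share of the RNA in its pool, so a change in share says nothing of the total RNA in either pool. Between lysates of whole tissue, fewer cells of a type and less RNA per cell cannot be told apart.

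Hspa5, the ER's Hsp70 and its most general chaperone, stood at 402 and 308 scaled TPM in early and 688 and 618 in late WT libraries, and at 393 and 264 in early and 649 and 489 in late cKO libraries (replicates 1 and 2). Each late library was above each early one, and cKO replicate 2 was the lowest within both fractions. The mean rose from 355 ± 66.5 to 653 ± 49.3 TPM in WT and from 328 ± 91.1 to 569 ± 113 in cKO (SD, n = 2 each). The log2 change was 0.85 (SE 0.16), or 1.80-fold (95% interval 1.40 to 2.30), with an adjusted p of 0.0014 by limma.

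Hyou1, a large relative of Hsp70 that exchanges the nucleotide of Hspa5, stood at 65.9 and 52.0 TPM in WT early and 127 and 124 in WT late libraries. In cKO it was at 65.1 and 42.2 in early and 125 and 116 in late libraries. Its late libraries were close together, whereas the early ones were spread. Hyou1 rose by 1.13 log2 (SE 0.14), or 2.20-fold (1.77 to 2.72), adjusted p = 0.00013 by limma. Its late to early ratio was between 1.92 and 2.75 in the 4 lysates.

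Sdf2l1 and Manf, which are also known to act with Hspa5, went the other way. Sdf2l1, which acts with the co-chaperone Dnajb11 to keep clients from aggregating, stood at 91.4 and 100.1 TPM in WT early and 45.0 and 38.4 in WT late libraries. In cKO Sdf2l1 was at 109 and 117 in early and 52.3 and 46.3 in late libraries. Every early library was above every late one, and within each fraction both cKO libraries were above both WT libraries. Sdf2l1 fell by 1.18 log2 (SE 0.081), 2.27-fold, adjusted p = 1.9e-05 by limma.

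Manf, which binds Hspa5 and slows its release of nucleotide, stood at 201 and 211 TPM in WT early and 106 and 74.3 in WT late libraries. In cKO Manf was at 211 and 237 in early and 86.9 and 73.7 in late libraries. It too was higher in every early library. Manf fell by 1.34 log2 (SE 0.12), 2.53-fold, adjusted p = 3.2e-05 by limma. In annotation, exons of Manf overlap Rbm15b by 14 nt on the same strand and, on the opposite strand, Dcaf1 by 146 nt and 4930524O07Rik by 166 nt. Whether reads were counted by strand is not given in the sources used here.

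Hsp90b1 (Grp94), the ER's Hsp90, which matures integrins and Toll-like receptors, stood at 856 and 675 TPM in WT early and 1407 and 1243 in WT late libraries. In cKO Hsp90b1 was at 825 and 545 in early and 1331 and 996 in late libraries. Its pattern across libraries was that of Hspa5, with cKO replicate 2 lowest in both fractions. The log2 change of Hsp90b1 was 0.79 (SE 0.16), or 1.73-fold (1.33 to 2.24), adjusted p = 0.0026 by limma. Exons of Hsp90b1 overlap the pseudogene 1810014B01Rik by 415 nt on the opposite strand, and Gm25745 by 133 nt and Gm15344 by 84 nt on the same strand.

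The lectin chaperones Calr (soluble) and Canx (membrane-bound) hold newly made glycoproteins through their trimmed sugar chains. Calr stood at 956 and 833 TPM in early and 1754 and 1974 in late WT libraries, and at 925 and 792 in early and 1844 and 2131 in late cKO libraries. Here replicate 2 was the lower in both early and the higher in both late groups. Calr rose by 1.14 log2 (SE 0.11), or 2.20-fold (1.84 to 2.62), adjusted p = 4.8e-05 by limma. Canx stood at 354 and 319.7 TPM in early and 482 and 484 in late WT libraries, and at 324 and 268 in early and 462 and 473 in late cKO libraries. Its 4 late libraries lay close together, and both cKO late libraries were below both WT late ones. At 0.59 log2 (SE 0.085), or 1.51-fold (1.32 to 1.73), adjusted p = 0.00032 by limma, the rise of Canx was the lowest of the 8.

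Pdia3 (ERp57), the disulfide isomerase that works on glycoproteins held by Calr and Canx, stood at 577 and 526 TPM in WT early and 816 and 818 in WT late libraries. In cKO Pdia3 was at 537 and 454 in early and 805 and 833 in late libraries. The late libraries were nearly level, as for Canx. Pdia3 rose by 0.65 log2 (SE 0.087), or 1.57-fold (1.36 to 1.80), adjusted p = 0.00023 by limma.

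Pdia4 (ERp72) and Pdia6 (P5) are disulfide isomerases found in complexes with Hspa5 and Hsp90b1. Pdia4 stood at 204 and 174 TPM in early and 329.5 and 354 in late WT libraries, and at 188 and 146 in early and 343 and 307 in late cKO libraries. Pdia6 stood at 189 and 159, 377 and 361, 164 and 119, and 369 and 328 TPM in the same order of groups. For both, early and late libraries were well apart, and the lowest library of each fraction was cKO replicate 2. Pdia4 rose by 0.91 log2 (SE 0.10), or 1.88-fold (1.60 to 2.21), adjusted p = 8.8e-05 by limma. With 1.20 log2 (SE 0.11), or 2.30-fold (1.92 to 2.74), adjusted p = 4.1e-05 by limma, Pdia6 had the highest rise of the 10.

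Every rise and fall was seen in 4 of 4 lysates. Leaving out WT early replicate 2, the library with the conflicting tag, left 5 members higher and 2 lower in WT, since Hspa5 (0.70 log2, adjusted p = 0.078), Hsp90b1 (0.63, adjusted p = 0.13) and Canx (0.45, adjusted p = 0.054) then missed the threshold by limma. On the mean of both genotypes all 10 calls were kept without it.

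The length of the encoded protein limits how many ribosomes an mRNA can carry, and the members differ in it. By the longest annotated coding sequence (GENCODE M21, GRCm38), Manf has 179 and Sdf2l1 221 amino acids. The 8 that rose have from 416 (Calr) to 999 (Hyou1): Pdia6 445, Pdia3 505, Canx 591, Pdia4 641, Hspa5 655 and Hsp90b1 802. The division at 400 amino acids, between those that rose and those that fell, was seen after the values. Over the 10 members the change correlated with log2 length at Pearson's r = 0.84 and with length at Spearman's rho = 0.36. Among the 8 longer ones alone rho was -0.26. Thus the correlation rests on the 2 short proteins, and all points share the same 8 libraries. Over the 14687 tested genes with a length rho was 0.63, a description across genes, which are not independent replicates.

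Each member was set against tested genes whose proteins were within 10% of its own length. All 8 longer members were above the median of such genes and both short ones below it. Calr exceeded the median of 1520 genes (0.037 log2) by 1.10, and Pdia6 that of 1589 genes (0.12) by 1.08. For Hyou1 the difference was 0.65, for Pdia4 0.59, for Hspa5 0.52, for Pdia3 0.43, for Hsp90b1 0.39 and for Canx 0.31. Sdf2l1 was 0.54 below the median of 894 genes (-0.64), and Manf 0.47 below that of 578 (-0.87). Only Canx lay within the middle 50% of genes of its length, while 7 members lay above that range and 2 below it.

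**Figure D2:**
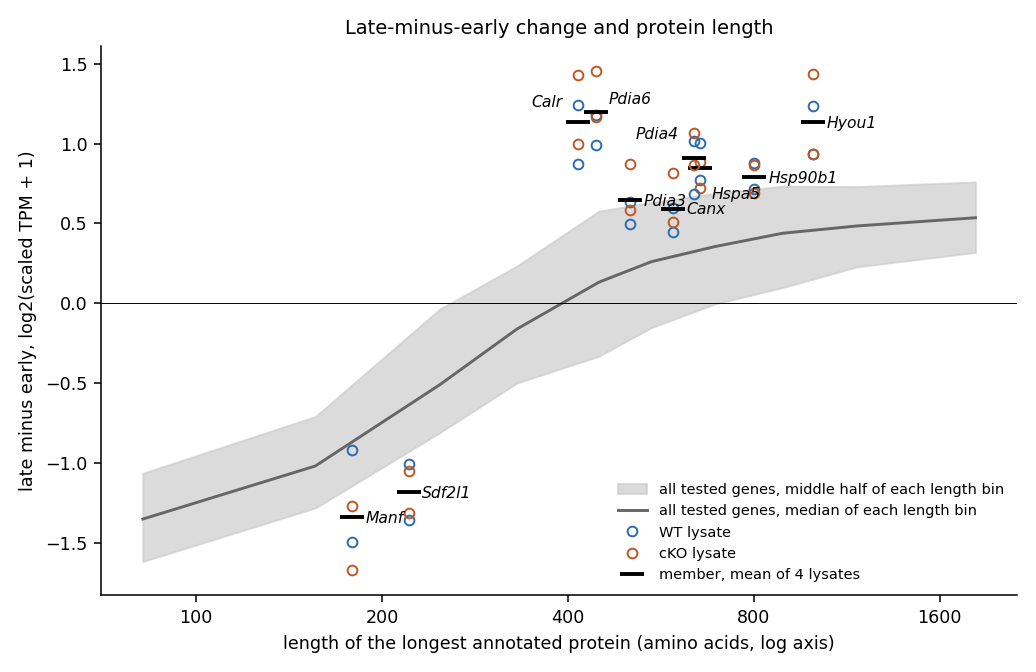
Late-minus-early change in log2(scaled TPM + 1) (vertical) against the length of the longest annotated protein (horizontal, log axis); circles are the 4 lysates, black bars the mean of each member, the grey line and band the median and middle 50% of all tested genes in length bins. The 8 longer members lie above the median line, with Calr and Pdia6 farthest above it, and Sdf2l1 and Manf lie below it.

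Close relatives gave a further comparison, with pairs chosen after their values were seen and of similar length in all pairs but Calr with Canx. Sdf2, the paralog of Sdf2l1 with 219 amino acids, lay between 47.0 and 51.2 scaled TPM in all 8 libraries, with early and late libraries overlapping. The change of Sdf2l1 was lower than that of Sdf2 in 4 of 4 lysates, by -1.20 ± 0.24 log2 (SD, n = 4). Cdnf, the paralog of Manf with 187 amino acids, was at 10.9 and 10.8 TPM in early and 8.98 and 7.45 in late WT libraries, and at 10.8 and 11.0 in early and 6.86 and 7.22 in late cKO libraries, on 62 to 159 reads. Both paralogs fell, and the change of Manf was lower than that of Cdnf (-0.47 log2, SE 0.10, adjusted p = 0.0030 by limma) by -0.87 ± 0.23 (SD, n = 4), again in 4 of 4 lysates. Clgn, a membrane lectin chaperone related to Canx (611 amino acids), changed by 0.43 log2, and Canx exceeded it by 0.17 ± 0.051 in 4 of 4 lysates. Calr (416 amino acids) exceeded Canx (591) by 0.54 ± 0.10 in 4 of 4, and Pdia3 was lower than P4hb, the archetypal disulfide isomerase (509 amino acids), by -0.22 ± 0.12 in 4 of 4. By an exact two-sided sign-flip permutation test over lysates each of these 5 differences had p = 0.125, also after adjustment over the 5, which is the smallest that 4 lysates allow.

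Chaperones of the same families outside the ER were listed as counterparts. All 10 of them passed by limma as higher in late polysomes, with a median of 0.90 log2, beside 34.3% of all genes passing as higher. Among relatives of Hspa5, the constitutive cytosolic Hspa8 rose by 0.92 and the mitochondrial Hspa9 by 0.97. The inducible Hspa1a (0.66) and Hspa1b (0.65) also passed, but they are near-identical copies with a mean of 1.42 and 3.02 TPM, between which reads may have been split. Relatives of Hsp90b1 were the cytosolic Hsp90aa1 (1.28) and Hsp90ab1 (0.87) and the mitochondrial Trap1 (0.83). Relatives of Hyou1 were Hspa4 (0.94), Hspa4l (0.99) and Hsph1 (0.83). Of the members, Hspa5 (0.85) lay below Hspa8 and Hspa9 and above only Hspa1a and Hspa1b, whose levels were low. Hsp90b1 (0.79) lay below its 3 relatives, while Hyou1 (1.13) lay above its 3. These differences were not tested.

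The remaining genes of the folding pathway fell on both sides. Of 9 co-chaperones and exchange factors of Hspa5, 3 were higher in late polysomes, 2 lower and 4 not called. The exchange factor Sil1 (0.86 log2) and Hspa13 (0.70) were the highest, and Dnajb9 (-0.39), which represses the stress sensor Ern1, and Dnajc25 (-0.76) the lowest. Of 17 tested genes among 18 other disulfide enzymes, 6 were higher, 7 lower and 4 not called. P4hb (0.87) and Pdia5 (0.56) led, and Ero1l (-0.59), which passes electrons from the isomerases to oxygen, and Tmx1 (-0.91) were lowest.

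Of 8 enzymes and lectins of the glycoprotein cycle that feeds Calr and Canx, 5 were higher, 2 lower and 1 not called. The glucosidase II subunit Prkcsh (1.16) and the glucosidase Mogs (0.89) were highest, Man1b1 (-0.34) and Mlec (-0.73) lowest. Of 8 ER prolyl isomerases, 2 were higher, 3 lower and 3 not called, from Fkbp10 (0.85) and Fkbp9 (0.25) to Ppib (-0.65) and Fkbp2 (-1.39). Of 14 other ER-lumen factors, 4 were higher, 6 lower and 4 not called. Rcn3 (1.07) and the collagen chaperone Serpinh1 (1.00) were highest, Tor1a (-0.84) and Cnpy2 (-1.18) lowest.

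ER-associated degradation, which removes proteins that fail to fold, had 7 of 22 genes higher, 12 lower and 3 not called. The lectin Os9 (1.21) and Sel1l (1.02), which belong to the Syvn1 ubiquitin ligase complex, were highest. The conjugating enzyme Ube2g2 (-0.95) and the ligase Rnf5 (-1.21) were lowest. Of 9 sensors and transcription factors of the unfolded protein response, 4 were higher, 3 lower and 2 not called. The ER-bound factors Atf6 (1.16) and Atf6b (1.09), whose cleaved forms act at the ER stress element, were highest, and Atf4 (-0.96) and Ddit3 (-1.12) lowest. List medians ran from -0.38 for degradation to 0.58 for the glycoprotein cycle, beside 0.82 for the members and 0.90 for the counterparts. The lists were chosen with earlier results of these data known, and their differences were not tested.

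**Figure D3:**
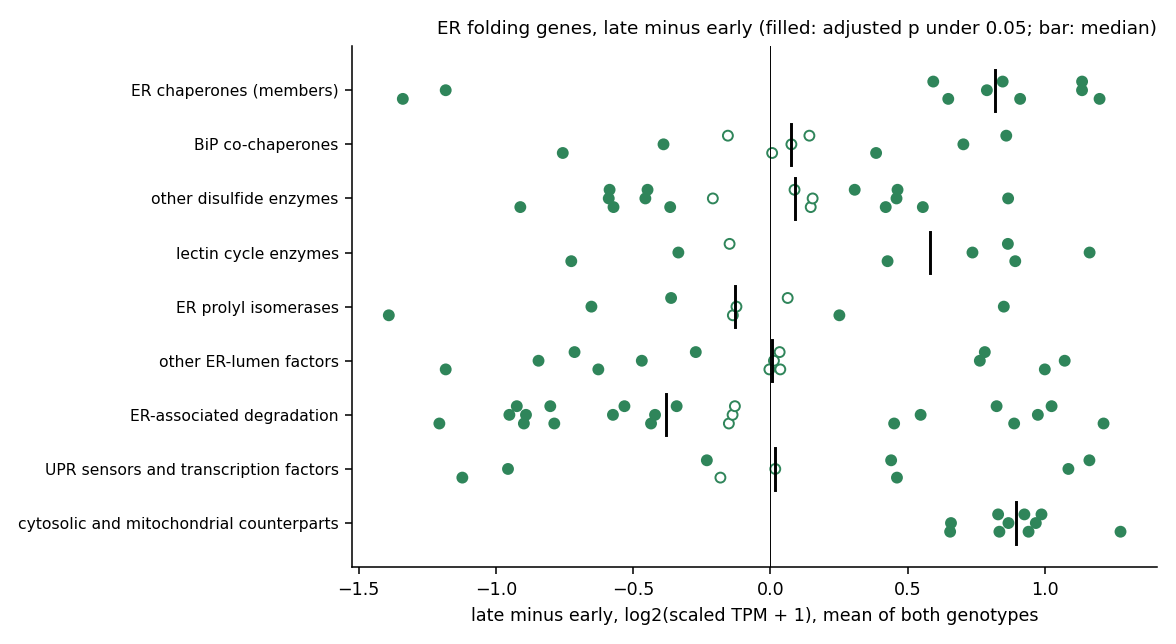
Late-minus-early change in log2(scaled TPM + 1), mean of both genotypes (horizontal), of the members and of 8 lists of related genes; each circle is a gene, filled where its adjusted p was under 0.05, and black bars are medians. The counterparts all lie above 0, 8 of 10 members do so, and the other lists extend to both sides.

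The genotypes were compared to ask whether the ER chaperone mRNAs change on polysomes without Mex3a. None of the 10 members passed by limma in early polysomes (0 of 10, where 0.0435% of all genes passed), in late polysomes (0 of 10, 0.0124%) or on lysate means, which average both fractions of a lysate (0 of 10, 0.00621%). At an unadjusted p under 0.05 were 0, 0 and 1 members, where 6.65%, 9.36% and 11.3% of all genes were. The changes were below 0 for 8, 7 and 8 of 10 members, where 48.7%, 50.2% and 49.6% of genes were, with medians of -0.16, -0.062 and -0.11 log2. Of the 10 cytosolic and mitochondrial counterparts, 10, 8 and 10 were below 0, with medians of -0.15, -0.086 and -0.15 log2. Values below 0 were thus not particular to the members. The members are not independent of each other in such a count. Voom on the inferred reads called 0 of 10 in each comparison as well.

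Hspa5 in cKO was at 92.4% of its WT mean in early and 87.1% in late polysomes, with overlapping libraries. On lysate means its ratio of cKO to WT was 0.889, with a 95% interval of 0.658 to 1.20 (adjusted p = 0.74 by limma). Hsp90b1 had the widest interval, 0.640 to 1.20 around 0.876. Among those with narrow intervals were Calr at 1.01 (0.872 to 1.17), Pdia3 at 0.948 (0.826 to 1.09), Canx at 0.921 (0.806 to 1.05) and Manf at 0.990 (0.852 to 1.15). For Pdia4 the ratio was 0.914 (0.770 to 1.09), for Pdia6 0.873 (0.712 to 1.07) and for Hyou1 0.931 (0.741 to 1.17). Changes within these intervals were not detectable with 2 lysates per genotype. Pdia6 had the lowest value in early polysomes, -0.31 log2 (SE 0.16, adjusted p = 0.79 by limma), with overlapping libraries.

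Sdf2l1 was the member at an unadjusted p under 0.05. Its cKO mean was 113 ± 5.22 TPM against 95.8 ± 6.11 in WT in early polysomes, and 49.3 ± 4.27 against 41.7 ± 4.67 in late polysomes (SD, n = 2 each). Both cKO libraries were above both WT libraries in each fraction, as for 19.6% of genes in early and 20.5% in late polysomes. On lysate means the ratio was 1.18 (1.05 to 1.32), a log2 change of 0.24 (SE 0.065, adjusted p = 0.37 by limma). It thus did not pass the test over all genes. Both cKO late libraries of Canx were below both WT late ones, as for 20.1% of genes, at 96.7% of the WT mean.

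The interaction asked whether the position of these mRNAs on the gradient differed between genotypes. By limma 0 of 10 members passed, where 0.00621% of all genes did, and 0 had an unadjusted p under 0.05, where 2.85% did. Values lay between -0.26 log2 for Manf (SE 0.23, 95% interval -0.80 to 0.27) and 0.23 for Pdia6 (interval -0.29 to 0.74). The genes of the 8 related lists gave 0 calls between genotypes in early polysomes, late polysomes, lysate means or the interaction.

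**Figure D4:**
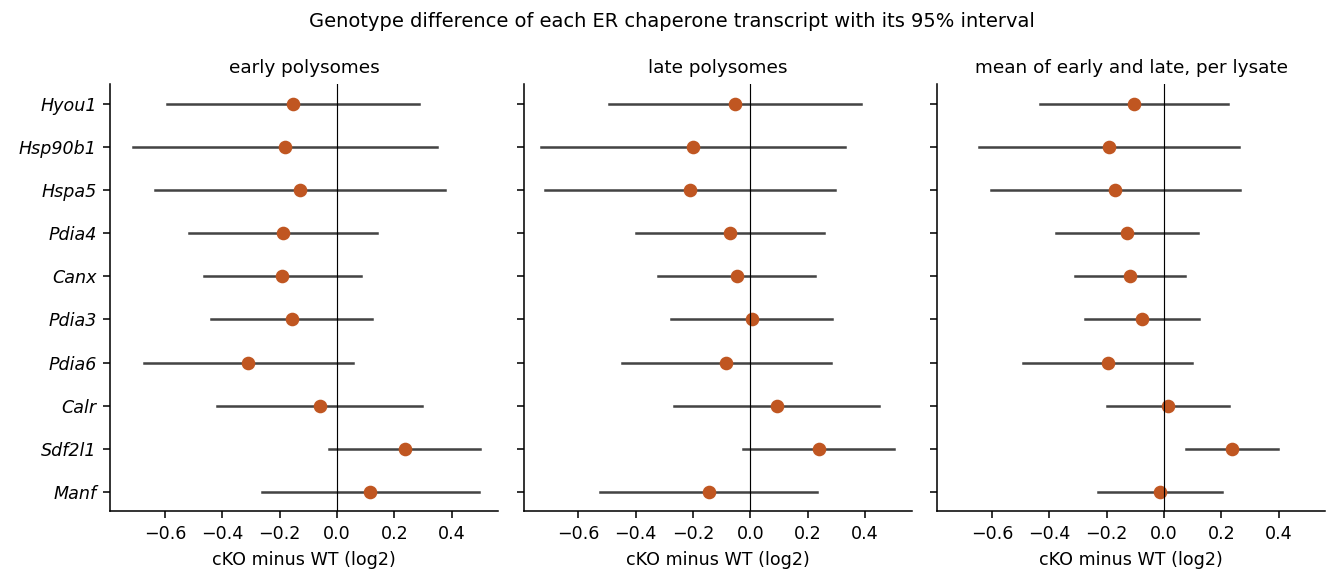
Difference cKO minus WT in log2(scaled TPM + 1) (horizontal) of each ER chaperone transcript in early polysomes, late polysomes and on lysate means; points are limma estimates from 2 against 2 libraries or lysates and lines their 95% intervals. All intervals include 0 except that of Sdf2l1 on lysate means, whose adjusted p is 0.37.

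The 8 longer members also mostly varied together between libraries of a fraction. In early polysomes the library of replicate 2 was lower than that of replicate 1 in both genotypes for all 8 longer members. As a mean over those 8 members, after the mean of each fraction had been removed, WT early libraries were at 0.21 and -0.040 log2 and cKO early libraries at 0.12 and -0.29. Sdf2l1 and Manf went the other way, with replicate 2 above replicate 1 in both early groups. The share of all genes with either order was not counted. Other genes that rose in late polysomes were also lower in replicate 2. Hsp90ab1 was at 1958 and 1726 TPM in WT early and 1937 and 1519 in cKO early libraries, and P4hb at 628 and 524, and 581 and 494. Hspa8 was not, at 647 and 690 in WT early libraries. The order was thus not particular to the members. Across the 8 libraries, again after the mean of each fraction had been removed, the 28 pairs among the longer members had Pearson's r from 0.18 to 0.99, with a median of 0.88, the highest being Hspa5 with Hsp90b1. Pairs with Sdf2l1 or Manf had r from -0.83 (Calr with Manf) to 0.45 (Sdf2l1 with Manf). Only the mean of each fraction was removed, so differences between genotypes remain in these correlations. They share libraries and depth and are a description. Among 11029 other genes with a mean TPM of at least 10, those most like the mean of the 10 members on these centred values were Itgb1 (r = 0.99), Vcp (0.99), Sec23ip (0.99), Nars (0.99) and 2210016L21Rik (0.99), over 8 libraries.

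Secretory and connective tissue cells are known to be rich in ER chaperones, and several of their markers moved with these values. Markers of several other cell types moved likewise, so the movement was not particular to chaperone-rich cells. The 5 Bowman's gland markers summed to 8042 and 3801 scaled TPM in WT early and 8162 and 6228 in cKO early libraries, lower in replicate 2 as for the 8 longer members. In late libraries they summed to 15462 and 10001 in WT and 17930.0 and 14275 in cKO, and 5 of 5 were called higher in late polysomes. The 6 fibroblast and bone markers summed to between 8178 and 13556 in early and between 13410.0 and 17828 in late libraries, and were likewise lower in replicate 2 of both early groups. This sum is mostly Col1a1 and Col1a2, and 3 of the 6 genes were called higher and 1 lower in late polysomes. Bglap ran the other way, at 54.8 and 93.3 deposited TPM in WT early and 57.1 and 117 in cKO early libraries, against 13.6 to 27.6 in late ones. The sum of the 6 sustentacular (supporting) cell markers was 6709 to 8061 in early and 10069 to 11720.0 in late libraries, with 5 called higher and 1 lower. Of 7 plasma cell markers, the immunoglobulin genes Igha, Ighm and Igkc had no values. The other 4, of which 2 were tested, summed to between 2.99 and 6.06 TPM, near 0. This sum leaves out immunoglobulin mRNA, so it does not show whether plasma cells were absent. The 9 mature neuron markers summed to 8848 to 11068 in early and 6808 to 8110 in late libraries, with 7 called higher and 2 lower. Horizontal basal cell markers summed to 69.4 and 54.4 in WT early and 75.9 and 53.2 in cKO early libraries, and globose basal markers to 283 and 266, and 303 and 262. For endothelial markers the sums were 52.2 and 45.6, and 58.0 and 45.1. These 3 sums were also higher in late libraries. Myeloid markers went the other way, at 218 and 326, and 295 and 367, against 121 to 159 in late libraries. By the library names, early and late pools came from the same lysates, so their marker differences lie between fractions of the same tissue. The part of cell composition in the members' differences between lysates was not tested, nor was that of cell type in their late-minus-early changes.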

How the data were processed

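The authors deposited 1 table of TPM for 21765 gene symbols, each library summing to 1000000. The submitters' processing notes name FastQC, cutadapt, STAR, DESeq2 and the build mm10 without roles; the counting tool and annotation are not given in the sources used here. Libraries were made with a stranded total RNA kit for low input, per the labels' protocols.

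From the deposited TPM, median-ratio scaling and limma 3.58.1 (R 4.3.3) on log2(scaled TPM + 1) were computed here, so folds understate changes of low genes. Genes with a mean TPM of at least 1 were tested, with the 4 groups fitted together, a mean-variance trend, two-sided p-values and Benjamini-Hochberg adjustment over all 16097 genes (threshold 0.05). Genotype was also tested on 2 against 2 lysate means. On simulated libraries with independent noise and no lysate effect the test was checked for known changes. That setting is simpler than these data, so it does not show how the test performs on them.

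Whole reads were inferred from the TPM steps for 19783 of 19783 genes above 0 in at least 2 libraries (tolerance 0.001). In simulated libraries 98.9% of 19366 genes came back exactly. Intervals cover the spread between libraries only.

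The members and lists were chosen with earlier results of these data known. Named genes were the members, Mex3a, the counterparts and, of each other list, the 2 highest and 2 lowest changes; others were named after their values were seen. Early and late libraries of 1 lysate share a name in the labels. Their deviations from group means correlated at 0.086 (WT) and 0.050 (cKO). Replicates differed beyond counting noise (chi-square per degree of freedom 6.68 to 15.2). Lengths came from GENCODE M21, which held 91.2% of tested genes. Alternatives were pseudocounts of 0.1 and 0.5, filters, scaling, no trend, fewer libraries, replicate blocks and voom. Figures were drawn with matplotlib 3.10.9.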

Additional observations from a re-analysis of the deposited data

How the results depend on the processing

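The 8 members higher and 2 lower in late polysomes, on the mean of both genotypes and in cKO, stayed within 1.5 times under every alternative run, and 0 members were called between genotypes or in the interaction in any. The 8 members above genes of like length remained 8 with windows of 5% and 20%, TPM as deposited and quantile normalization. In WT the count of members higher in late polysomes ranged from 5 to 8 when single libraries were left out, lowest without WT early replicate 2, and in cKO from 6 to 8. A lone library in a group was then assumed to vary like the other groups. Within 1 genotype, Hspa5 also missed the threshold without WT late replicate 1 (0.81 log2, adjusted p = 0.057), cKO early replicate 2 (0.52, 0.097) or cKO late replicate 1 (0.60, 0.086). Hsp90b1 did so without WT late replicate 1 (0.71, 0.096) or 2 (0.89, 0.054), cKO early replicate 2 (0.48, 0.13) or cKO late replicate 1 (0.57, 0.11), and in cKO with only the libraries compared (0.78, adjusted p = 0.05001).

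With lysate as a replicate block, 8 members were higher and 2 lower in late polysomes on average, in WT and in cKO, and 0 passed in the interaction. A replicate block on the number, which pairs WT and cKO only by label, gave 0 members in each genotype comparison. It called 85 of all genes on lysate means, where the main count was 1; same-numbered WT and cKO libraries deviated together at 0.33 in early and 0.14 in late polysomes.

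Genotype changes of the members that did not pass took both signs in places. Pdia3 in late polysomes was -0.034 log2 with TPM as deposited and -0.045 with quantile normalization, Calr on lysate means -0.033, -0.041 and, with voom, -0.048, and Manf on lysate means 0.11 with voom. Leaving out libraries in early polysomes gave -0.41 to 0.16 for Hspa5, -0.48 to 0.12 for Hsp90b1, -0.17 to 0.051 for Calr and -0.46 to 0.15 for Hyou1. In late polysomes it gave -0.41 to 0.0095 for Hsp90b1, -0.013 to 0.20 for Calr, -0.021 to 0.029 for Pdia3, -0.15 to 0.0078 for Pdia4, -0.11 to 0.00059 for Hyou1 and -0.40 to 0.11 for Manf. On lysate means it gave -0.41 to 0.075 for Hspa5, -0.44 to 0.064 for Hsp90b1, -0.26 to 0.00088 for Pdia4, -0.28 to 0.077 for Hyou1 and -0.12 to 0.093 for Manf. Counts over all genes were 0 to 12 in early polysomes (main 7), 0 to 15 in late (main 2), 0 to 85 on lysate means (main 1) and 0 to 7 in the interaction (main 1). The cause of these changes was not tested.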

Other observations

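Genes of the related lists were also set against tested genes whose proteins were within 10% of their own length, in the change between late and early polysomes. All 10 cytosolic and mitochondrial counterparts were above the median of such genes, by 0.33 to 0.90 log2. Of the ER prolyl isomerases 6 of 8 were above it, of the other ER-lumen factors 8 of 13, of the glycoprotein cycle 5 of 8, of the disulfide enzymes 9 of 17 and of the co-chaperones of Hspa5 5 of 9. Of the degradation genes 9 of 20 were above it and of the sensors and transcription factors 3 of 9. Median differences ran from -0.17 log2 for degradation to 0.52 for the counterparts, beside 0.47 for the members.

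A few genes departed from the trend with length. Mbtps1, the protease that cleaves Atf6, has 1052 amino acids and fell by 0.23 log2 (SE 0.065, adjusted p = 0.012 by limma), at 151 to 166 scaled TPM in early and 129 to 137 in late libraries. Dnajc10, a disulfide reductase of 793 amino acids, was at -0.16 log2 (SE 0.069, adjusted p = 0.073 by limma) and did not pass. Xbp1, whose mRNA is spliced by Ern1 under stress, was at 0.018 log2 (SE 0.073), with 135 to 172 scaled TPM in early and 137 to 164 in late libraries. Its annotated length of 267 amino acids does not separate spliced from unspliced mRNA, so its place on the length trend is uncertain. The choice of these 3 genes was made with their values in view.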
